A study of Mus musculus with 24 samples.

Results

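The collagen genes of the mouse were described in RNA-seq libraries of neural stem cells and astrocytes. They were taken as the protein-coding genes whose symbol is Col, a type number, a and a chain number, which gave 44 of the 49671 genes with deposited counts. By the class of their product, 11 encode fibrillar collagens, 6 the type IV chains of basement membranes, 2 multiplexins, 6 the type VI chains of beaded filaments, 9 fibril-associated collagens, 4 transmembrane collagens, and 6 network-forming and other collagens. The 24 libraries form 6 groups of 4. NSC are neural stem cells made from 1 embryonic stem cell line of C57BL/6N mice and kept at passages 50 to 60 in FGF and EGF on gelatin. AGES are astrocytes made from these NSC with 20 ng/ml BMP4 for 3 to 5 days on poly-ornithine and laminin. Their N2B27 medium is described without FGF and EGF, so BMP4 cannot be told apart from the change of growth factors and coat. NeoAC and AdAC are astrocytes of wild-type C57BL/6J mice, 4 to 8 and 100 to 140 days old, selected with magnetic beads against the astrocyte surface antigen ACSA-2 from 2 pooled mice per isolation, without a split by sex. "Direct" cells were frozen after isolation, and "CellC" cells were first cultured for 7 to 10 days on poly-lysine and laminin in AstroMACS medium. Between AGES and CellC, origin therefore cannot be told apart from substrain and medium. Neonatal and adult brains went through different dissociation kits, meninges were removed from neonatal brains, and olfactory bulb and cerebellum were removed for the direct adult cells, so age cannot be told apart from these steps. That last step is stated for direct adult cells only, so cultured and direct adult cells may differ in brain region too. Cultures were seeded on a laminin coat in AGES and CellC, and all replicates were separate isolations or separate cultures.

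Collagens are secreted or membrane-bound proteins built from 3 alpha chains wound into a helix, and the genes for these chains are named by type and chain. Fibrillar types I, II, III, V and XI pack into banded fibrils, with type V and XI chains setting how a fibril starts and how thick it becomes. Type IV chains form the sheet-like network of basement membranes, which in brain lies between vessels and astrocyte endfeet and at the pial surface, and the genes of these chains are arranged in head-to-head pairs. Fibril-associated collagens sit on the surface of fibrils, and multiplexins are basement membrane proteins whose cleaved ends include endostatin. In healthy brain parenchyma fibrillar collagen is sparse and is found mostly around vessels and in the meninges.

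The starts of 6 members are shown, in 5 sequences, because the results below turn on them: the shared start of Col4a3 and Col4a4, whose levels were both low in NSC and AGES and higher in culture, the starts of Col4a5 and Col4a6, which differed the most within a pair, and those of Col5a1 and Col3a1, fibrillar genes with 222 and 0.0974 CPM in AGES. The sequences are RefSeq's on GRCm38.p6, cut to bases outside any annotated exon, written 5′ to 3′ along the strand of the gene, with CpG dinucleotides in capitals. The 71 bases between Col4a4 on the minus strand and Col4a3 on the plus strand (chr1:82586850-82586920) are given on the minus strand.
Col4a4 and Col4a3: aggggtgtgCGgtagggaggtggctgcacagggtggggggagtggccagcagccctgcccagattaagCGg
Col4a5 (chrX:141475169-141475384, plus strand): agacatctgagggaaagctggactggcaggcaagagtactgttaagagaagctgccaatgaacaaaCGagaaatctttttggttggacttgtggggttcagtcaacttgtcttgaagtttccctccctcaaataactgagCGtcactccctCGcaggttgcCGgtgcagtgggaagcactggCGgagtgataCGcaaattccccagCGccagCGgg
Col4a6 (chrX:141474077-141474326, minus strand): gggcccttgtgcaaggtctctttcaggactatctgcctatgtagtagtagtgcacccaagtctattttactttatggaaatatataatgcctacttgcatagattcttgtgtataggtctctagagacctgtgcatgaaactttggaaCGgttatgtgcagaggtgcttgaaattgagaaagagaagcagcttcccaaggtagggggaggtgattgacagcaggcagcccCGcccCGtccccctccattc
Col3a1 (chr1:45311288-45311537, plus strand): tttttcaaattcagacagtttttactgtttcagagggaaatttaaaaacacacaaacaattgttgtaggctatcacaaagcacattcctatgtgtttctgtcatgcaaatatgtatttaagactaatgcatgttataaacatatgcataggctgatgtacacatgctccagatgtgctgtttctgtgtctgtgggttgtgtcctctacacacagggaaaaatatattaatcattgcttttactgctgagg
Col5a1 (chr2:27886175-27886424, plus strand): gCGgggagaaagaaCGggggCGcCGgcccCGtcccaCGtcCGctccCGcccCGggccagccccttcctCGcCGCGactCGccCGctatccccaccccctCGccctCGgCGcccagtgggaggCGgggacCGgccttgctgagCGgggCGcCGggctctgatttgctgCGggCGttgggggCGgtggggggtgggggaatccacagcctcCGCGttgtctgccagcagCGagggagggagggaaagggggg
The stretch before Col5a1 holds 28 CpG and that before Col3a1 holds 0, while Col4a5 has 8 in 216 bases and Col4a6 has 3 in 250 bases.

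Promoter windows of 300 bases, from 250 before to 50 after the RefSeq start, were found for 35 of the 44 members (38 windows). Their median was 11.5 CpG, against 7 in 32851 windows of all genes. Among members under 1 CPM (counts scaled to a common library size) in both NSC and AGES, 15 of 22 had a window, with a median of 10 CpG and a range of 0 to 32, and the other 20 with a window had a median of 12 and a range of 0 to 37. The ranges overlapped almost fully among the members with a window. Col1a1 and Col5a2, both under 1 CPM in NSC and AGES, had none, and a link of CpG content to level was not tested. In the 250 bases before the start, on either strand and with none of the motifs holding another, TATAAA was found in 5 of the 38 windows (13.2%, 12.4% of all windows), CCAAT in 13 (34.2%, 33.8% of all) and GGGCGG in 22 (57.9%, 32.7% of all). Of the genes shown above, Col3a1 holds TATAAA, and Col4a6 and Col5a1 hold GGGCGG. The Col4a5 stretch shown holds CCAAT, and its full 250 bases hold GGGCGG as well. These are matches of letters, not measured sites.

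Library totals were 27904126 to 37997368 counts, so that 3 counts, used as the floor of a library, correspond to 0.0786 to 0.117 CPM. The labels were checked on marker lists. The summed level of 8 astrocyte markers, among them Gfap, Aqp4 and Slc1a2, was 54842 to 59566 CPM in AGES, 21110 to 24097 in neoAC direct, 15730 to 16446 in AdAC direct and 7321 to 8509 in neoAC CellC, but 868 to 1350 in AdAC CellC, below the 1902 to 2440 of NSC. The libraries labelled AdAC CellC therefore held little astrocyte marker RNA, and all results on them below refer to that label. The sums do not hold gene by gene: AGES had 5 of the 8 higher and 0 lower than NSC, but 2 higher and 4 lower than neoAC CellC. The sum of 5 oligodendrocyte markers was 24249 to 26748 CPM in AdAC direct and 3734 to 9507 in AdAC CellC, against 393 or less in every library of the other 4 groups. AGES replicate 3 stood apart from the other 3 AGES libraries in Col5a1, Col6a1 and Col6a2. Results without it are given for Col4a5, Col6a1 and Col6a2, but not for the tests of Col5a1. Summed levels of the other lists were 605 to 1254 CPM for 6 choroid plexus markers in neoAC direct, 468 to 1388 in neoAC CellC, 126 to 325 in AdAC direct, 286 to 463 in AdAC CellC and 12.6 or less in NSC and AGES, and 27.8 to 93.2 for 6 microglia, 27.6 to 282 for 5 oligodendrocyte precursor and 1.97 to 238 for 5 neuron markers over all libraries.

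Collagen genes took 0.0838% ± 0.0126 (SD, n = 4) of all counts in NSC and 0.163% ± 0.0413 in AGES. The share was 0.205% in neoAC direct and 0.513% in neoAC CellC. It was 0.165% in AdAC direct and 0.994% in AdAC CellC. Collagen RNA was therefore most abundant in cultured adult cells, where the summed level was 8932 to 9643 CPM (scaled by TMM) against 1533 to 1828 in the directly isolated adult cells. In a bulk library, more cells of a type and more RNA per cell cannot be told apart.

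**Figure D1:**
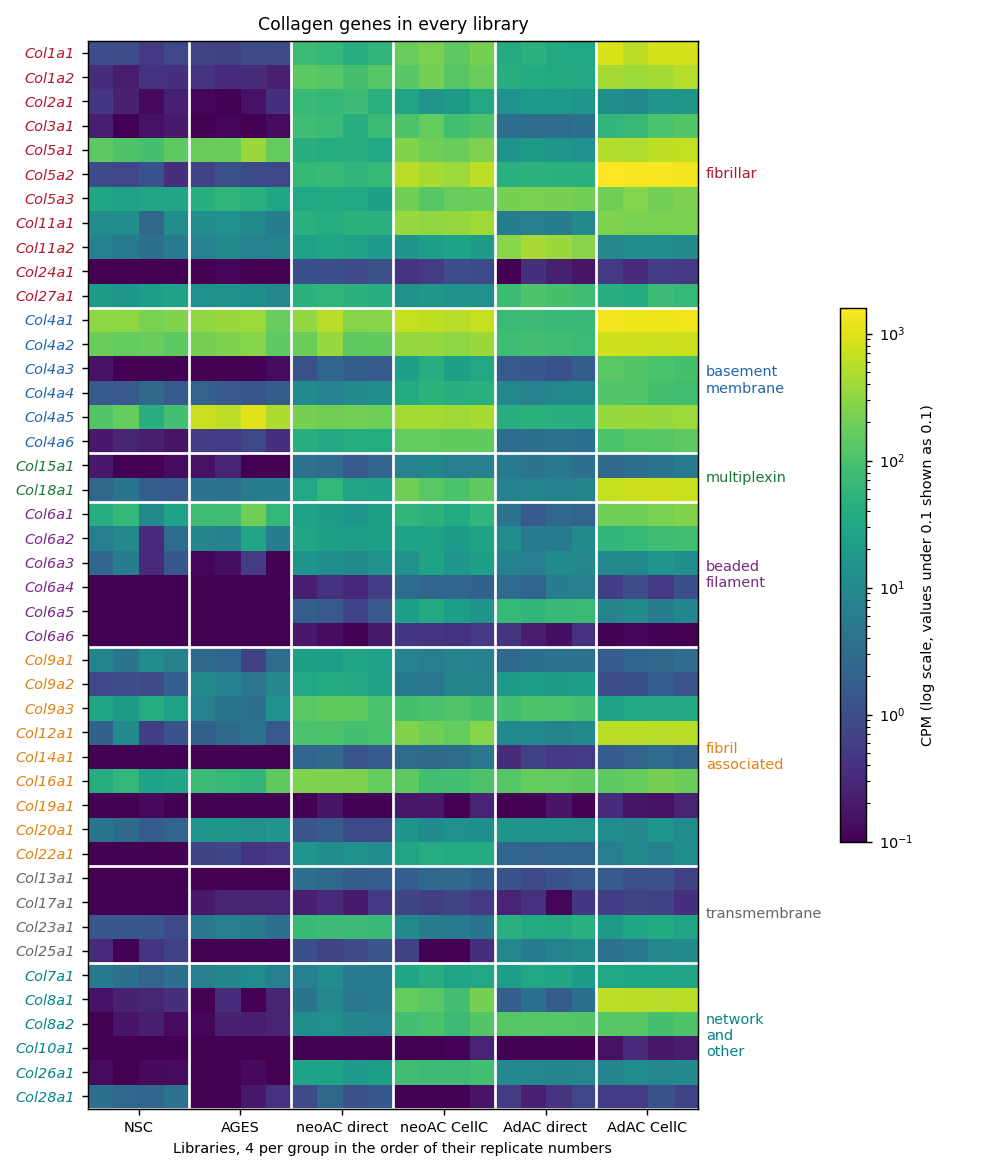
Level of the 44 collagen genes (rows, by class) in the 24 libraries (columns, 4 per group), in CPM on a log colour scale with values under 0.1 drawn as 0.1. NSC and AGES share a dark block over most fibrillar, type VI and network genes, while Col4a1, Col4a2, Col4a5 and Col5a1 stay bright in both.

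The repertoire of members differed as well as the amount. At a group mean of at least 1 CPM, 22 members were found in NSC and 20 in AGES, against 37 to 39 in the 4 groups of primary cells. In NSC 9 members and in AGES 8 members stayed at the floor of 3 counts, and Col6a4, Col6a5, Col6a6, Col10a1, Col13a1 and Col14a1 did so in both. Per exon length (RPKM, CPM divided by the exon length in kilobases), the first gene was Col4a1 in NSC (36.6), neoAC direct (48.0), neoAC CellC (85.7) and AdAC CellC (174). It was Col4a5 in AGES (106) and Col11a2, a type XI chain best known from cartilage, in AdAC direct (50.1). The type IV genes together held 62.3% ± 2.00 of collagen CPM in NSC and 68.6% ± 5.20 in AGES, but 13.0% ± 0.671 in AdAC direct, where fibrillar genes held 49.7% ± 2.74. All 42 members with enough counts to be tested (Col10a1 and Col19a1 were not) differed among the 6 groups at an adjusted p under 0.05, but so did 98.3% of all genes tested.

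**Figure D2:**
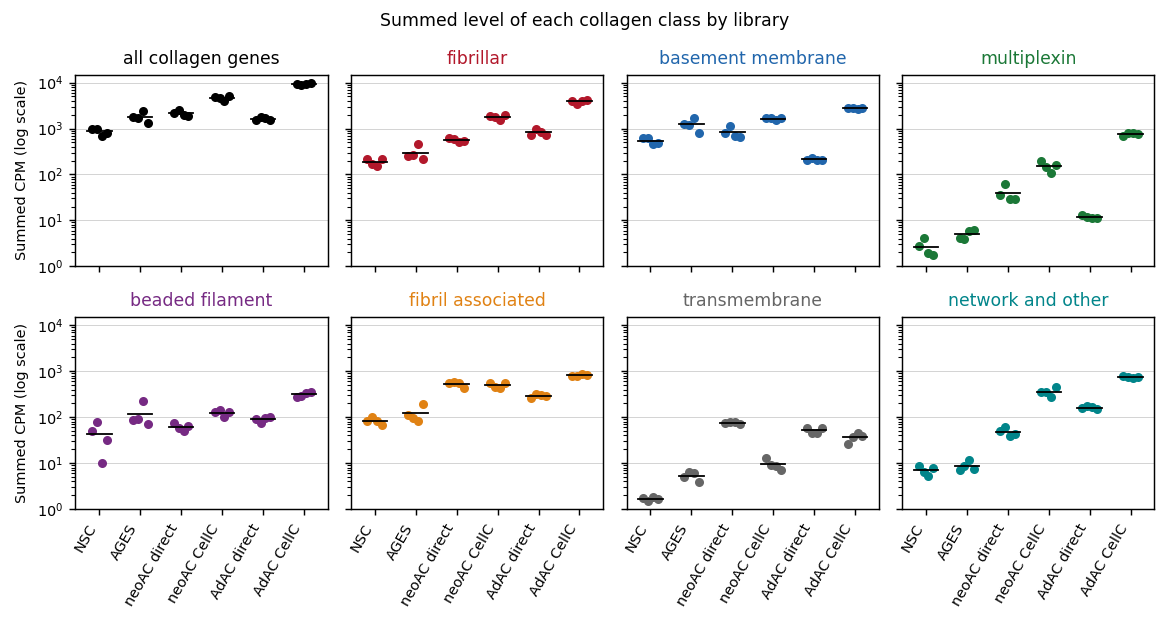
Summed CPM of each collagen class (log axis), 1 point per library and a bar at the group mean, for all members and for the 7 classes. Summed collagen CPM in the 4 AdAC CellC libraries sits between 8932 and 9643, above every other library, while the transmembrane class is highest in neoAC direct.

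Culture of adult astrocytes went with higher RNA of fibril and basement membrane collagens and lower RNA of a few others. Of the 42 tested members 21 were higher and 8 (19.0%) lower in AdAC CellC than in AdAC direct, beside 38.8% higher and 39.2% lower of all 19691 genes tested. The median difference was 0.74 on the log2 scale, against 0 over all genes. All 6 type IV genes and 7 of 11 fibrillar genes rose, while 3 of 6 type VI genes fell.

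Col8a1, a short-chain network collagen of vessel walls, had 614.89, 594.85, 575.52 and 588.58 CPM in AdAC CellC and 1.88, 3.46, 1.75 and 3.41 in AdAC direct. Its log2 difference was 7.81 ± 0.31 (SE, adjusted p = 3.66e-16), the highest of the members. Col18a1, the precursor of endostatin, had 681.72, 778.45, 796.18 and 741.89 CPM against 7.16, 7.88, 6.71 and 7.90, a difference of 6.66 ± 0.30 (adjusted p = 2.83e-15). Both genes were under 8 CPM in every direct library and over 575 in every cultured one. Col12a1, a fibril-associated collagen, went from 7.75 to 9.93 CPM in the direct libraries to 565.66 to 593.93 in the cultured ones (5.99 ± 0.49, adjusted p = 4.63e-10).

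Among fibrillar genes, Col5a2 reached the highest level of any member, 1560.6, 1393.5, 1474.3 and 1356.3 CPM in AdAC CellC, against 45.86, 51.33, 47.92 and 48.47 in AdAC direct. Col1a1, a chain of type I collagen, had 918.02, 595.2, 865.9 and 872.71 CPM against 36.89, 48.30, 35.53 and 31.89. Replicate 2 of AdAC CellC was the lowest of its group for Col1a1 but still above every direct library. Col1a2, Col3a1, Col5a1 and Col11a1 also rose with no overlap, by 3.56 to 5.18 on the log2 scale, whereas Col5a3, the third type V chain, stayed at 226 ± 29.0 (SD) against 218 ± 9.73 CPM.

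Col11a2 moved the other way. It had 282.12, 447.49, 369.36 and 277.73 CPM in AdAC direct and 8.93, 11.80, 11.66 and 9.80 in AdAC CellC, a log2 difference of -5.03 ± 0.23 (adjusted p = 1.58e-15). Its partner in type XI collagen, Col11a1, thus rose as Col11a2 fell. The type IX gene Col9a2 fell from 19.86 to 22.76 CPM to 0.98 to 1.83 (-4.03 ± 0.26, adjusted p = 5.53e-13) and Col9a3 from 88.79 to 109.63 to 26.85 to 34.68 (-1.61 ± 0.26, adjusted p = 8.43e-06). The type VI genes Col6a5 and Col6a4 fell by 3.09 and 2.46, while Col6a1, another type VI chain, rose by 6.41 ± 0.52 from 1.64 to 3.97 CPM to 195.28 to 253.06 (adjusted p = 4.66e-10). Within type VI collagen the chains therefore moved in opposite directions.

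Marker lists of other cells moved with this comparison. The summed level of 8 mesothelial and epithelial markers was 27.3 to 29.9 CPM in AdAC direct and 131 to 312 in AdAC CellC, where 6 of the 8 reached 1 CPM and Msln, a mesothelial marker, had 25.3 against 0.11 CPM. That of 10 mural cell markers was 555 to 577 against 965 to 1131 CPM, 7 of the 10 reaching 1 CPM in AdAC CellC, with the gain in Acta2 (69.7 to 813 CPM) while Pdgfrb, the defining pericyte receptor, was 140 in direct and 69.1 in cultured cells, and by gene 3 of the 10 rose and 7 fell. The fibroblast list went from 1122 to 1384 down to 280 to 385 CPM, most of it Apod, with Dcn at 6.64 and 10.5, but by gene 5 of the 10 rose and 3 fell, and the endothelial list from 123 to 129 down to 87.1 to 95.7 CPM. The oligodendrocyte list went from 24249 to 26748 down to 3734 to 9507 CPM, and the neuron list from 44.1 to 56.1 up to 164 to 238, with 2 of its 5 genes higher and 2 lower. The part of these cells in the collagen levels was not tested.

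In neonatal astrocytes culture went with a rise of more members. The median log2 difference was smaller than in adult cells for type IV genes (1.52 against 3.84) and fibrillar genes (0.80 against 3.56). It was larger for type VI genes (1.45 against -0.76) and network and other genes (2.20 against 0.19). Of 42 members 28 (66.7%) were higher and 8 (19.0%) lower in neoAC CellC than in neoAC direct, beside 34.4% and 31.3% of all genes, with a median of 1.12 against 0.04. All 6 type IV genes rose again, as did 4 of 6 type VI genes and 4 of 5 tested network and other genes.

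Col8a1 was again first, with 160.43, 134.11, 88.96 and 221.72 CPM in neoAC CellC and 4.29, 8.89, 4.75 and 5.39 in neoAC direct (4.69 ± 0.27, adjusted p = 5.70e-13). Its partner Col8a2, which did not pass the test in adult cells (116 ± 15.5 against 124 ± 3.36 CPM), had 87.82, 97.70, 75.86 and 119.94 CPM against 11.37, 13.01, 8.15 and 7.18 (3.26 ± 0.16, adjusted p = 1.03e-14). The cultured and direct libraries did not overlap for either gene. Col5a2 rose from 59.60 to 67.18 CPM to 380.9 to 612.21 (3.00 ± 0.14, adjusted p = 1.97e-15), and Col6a5 from 0.71 to 1.88 to 15.26 to 35.44 (4.11 ± 0.26, adjusted p = 7.56e-13).

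Col1a2 differed little, with 128.8, 208.08, 129.03 and 175.93 CPM in culture against 137.67, 130.43, 95.46 and 125.46 directly isolated. Its libraries overlapped, while those of Col3a1 were separate (86.0 to 163 in culture against 41.9 to 79.0 CPM). Both genes passed the test, with differences of 0.39 for Col1a2 and 0.80 for Col3a1. The gene that fell the most was Col28a1, at low levels throughout, with 0.91, 2.55, 1.12 and 1.43 CPM in neoAC direct and 0.06, 0.08, 0.03 and 0.17 in neoAC CellC (-4.11 ± 0.61, adjusted p = 1.77e-06). Col23a1, a transmembrane collagen, followed with 71.49, 76.67, 74.95 and 67.63 CPM in neoAC direct and 9.76, 5.81, 5.35 and 4.32 in culture (-3.53 ± 0.21, adjusted p = 3.70e-13). Col2a1, the fibrillar collagen of cartilage, and Col9a1 and Col9a2 of type IX, which associates with type II fibrils, fell by 1.38, 1.87 and 2.37 on the log2 scale.

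Here the fibroblast list was higher in culture (259 to 366 against 170 to 204 CPM), and the mural list was lower (394 to 749 against 824 to 1333 CPM) although Acta2 rose from 6.25 to 429. The mural markers Kcnj8 and Higd1b were at the floor in neoAC CellC (2 of 10), and the endothelial marker Cldn5 was at 0.07 against 43.4 CPM. The endothelial list as a whole summed to 89.8 to 140 CPM in neoAC CellC and 109 to 426 in neoAC direct. By gene, 1 of its 10 markers was higher in culture and 7 were lower. Replicate 2 of neoAC direct had 426 CPM of the endothelial list against 109 to 170 in the others of its group, and it also had the highest Col4a1 (558.72 against 271.19 to 331.17 CPM), Col4a2 (352.62 against 144.49 to 180.6) and Col18a1 (59.65 against 26.57 to 32.20). Their part in the collagen levels was not tested.

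The effect of culture differed between the ages for most members. The difference of both effects (interaction) passed the test in 37 of 42 members, with a higher effect in adult cells for 25 (59.5%) and a lower one for 12 (28.6%), beside 35.4% and 33.2% of all genes. It was higher in adult cells for all 6 type IV genes and 9 of 11 fibrillar genes. Col6a1 differed by 5.18 ± 0.64 (adjusted p = 3.92e-07), Col12a1 by 4.82 ± 0.59 (adjusted p = 3.78e-07) and Col18a1 by 4.67 ± 0.35 (adjusted p = 5.63e-11). For Col6a5 (-7.21 ± 0.34, adjusted p = 4.29e-15) and Col6a4 (-5.17 ± 0.49, adjusted p = 4.12e-09) the effects had opposite signs, with a fall in adult and a rise in neonatal cells. Col11a2 fell in adult cells and was at 21.1 ± 5.53 against 25.0 ± 4.79 CPM in neonatal ones (interaction -4.78 ± 0.29, adjusted p = 7.54e-13).

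**Figure D3:**
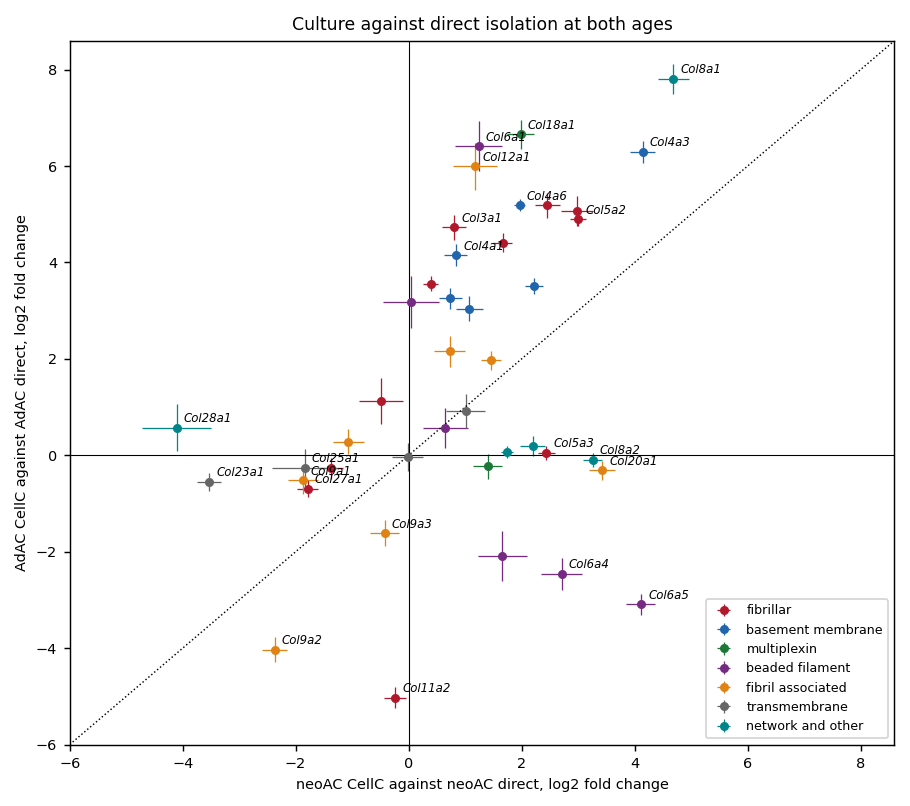
Log2 fold change of each tested collagen gene in culture against direct isolation, in neonatal (horizontal axis) and adult cells (vertical axis), with standard errors as bars, colours for classes and a dotted line at equal effects. Col8a1 lies at 4.69 and 7.81, Col6a5 at 4.11 and -3.09, and Col11a2 at -0.24 and -5.03.

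The directly isolated cells of both ages, which enter both effects, already differed. Of 42 members 25 (59.5%) were higher and 10 (23.8%) lower in neoAC direct than in AdAC direct, beside 35.0% and 36.4% of all genes, with a median of 0.90 against 0. Col3a1, which forms type III fibrils in vessel walls and soft tissue, had 79.02, 72.16, 41.87 and 73.89 CPM in neonatal and 3.44, 3.21, 3.03 and 3.58 in adult cells (4.33 ± 0.25, adjusted p = 2.94e-13). Col12a1 had 104.69, 105.77, 89.48 and 100.55 against 9.93, 9.11, 7.75 and 9.67 CPM (3.46 ± 0.44, adjusted p = 5.86e-07), and Col4a6 had 34.85 to 42.73 against 3.12 to 3.71 (3.51 ± 0.11, adjusted p = 1.20e-18). These 3 genes were separated between the ages in every library.

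Higher in the adult cells were Col6a5, Col11a2, Col20a1, Col8a2, Col6a4 and Col25a1. Col6a5 had 66.54, 59.20, 71.83 and 72.32 CPM in AdAC direct against 1.885, 1.467, 0.713 and 1.496 in neoAC direct (-5.59 ± 0.27 for neonatal against adult, adjusted p = 2.70e-15). Col8a2 had 122.33, 127.92, 124.91 and 120.12 against 11.37, 13.01, 8.15 and 7.18 CPM (-3.64 ± 0.17, adjusted p = 9.41e-16). Col11a2 differed by -3.78 ± 0.21 (adjusted p = 1.26e-13), and Col25a1, known as a component of amyloid plaques, had 8.29 ± 1.94 against 1.01 ± 0.241 CPM. Beside these, the oligodendrocyte list was 24249 to 26748 CPM in AdAC direct against 319 to 393 in neoAC direct and the fibroblast list 1122 to 1384 against 170 to 204, though by gene 7 of the 10 fibroblast markers were higher in neonatal cells and 2 lower, as were 7 and 2 of the 10 endothelial markers. The part of such cells was not tested.

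Between the cultured groups 14 members (33.3%) were higher and 19 (45.2%) lower in neoAC CellC than in AdAC CellC, beside 28.5% and 35.2% of all genes, with a median of 0.09, whose sign changed with the filter on low counts, against -0.08. Highest in neonatal cultures relative to adult ones was Col26a1, with 81.81, 76.98, 77.27 and 86.34 against 8.32, 10.72, 8.71 and 9.71 CPM (3.11 ± 0.12, adjusted p = 1.30e-16). Col9a2, Col22a1, a collagen of muscle-tendon junctions, Col9a3, Col6a4 and Col6a5 followed with 1.61 to 2.29. Lower were Col25a1 (-4.62 ± 0.53), Col18a1 (-2.37 ± 0.24), Col23a1 (-2.18 ± 0.20), Col6a1 (-2.10 ± 0.41), Col1a1 (-2.09 ± 0.17) and Col8a1 (-1.97 ± 0.23). Col3a1 (116 ± 33.1 against 88.0 ± 29.1 CPM) and Col20a1 (12.6 ± 1.83 against 11.9 ± 2.72 CPM) did not pass the test between these cultures. Marker lists moved with this comparison too: the mesothelial and epithelial list was 5.36 to 12.05 CPM in neoAC CellC against 131 to 312 in AdAC CellC, the oligodendrocyte list 245 to 318 against 3734 to 9507 with 5 of 5 lower, the mural list 394 to 749 against 965 to 1131, and all 8 astrocyte markers were higher in neoAC CellC. Their part was not tested.

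Between NSC and AGES, made from them with BMP4, Col4a5 rose the most and Col28a1 fell the most. Of 42 members 15 (35.7%) rose and 6 (14.3%) fell in AGES, beside 31.7% and 34.0% of all genes, with a median of 0.19 against 0. Col4a5 had 738.45, 615.44, 1004.9 and 481.43 CPM in AGES and 117.47, 160.65, 44.97 and 90.23 in NSC (2.78 ± 0.25, adjusted p = 8.54e-10). Every AGES library lay above every NSC library, and without AGES replicate 3 the difference was 2.57. Col4a1, which with Col4a2 makes the most common type IV trimer, was at 310 ± 99.2 against 273 ± 42.4 CPM and Col4a2 at 218 ± 53.2 against 165 ± 18.8, and neither passed the test.

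Col9a2 had 9.63, 7.10, 4.42 and 8.72 CPM in AGES against 0.78, 1.06, 0.92 and 1.84 in NSC (2.69 ± 0.27, adjusted p = 2.22e-09), while the other type IX genes Col9a3 (-2.03 ± 0.28, adjusted p = 1.35e-06) and Col9a1 (-1.75 ± 0.29, adjusted p = 1.09e-05) fell. Chains of a single collagen type thus differed in opposite directions between AGES and NSC. Col20a1 rose from 1.69 to 4.33 to 13.1 to 16.9 CPM and Col23a1 from 0.90 to 1.43 to 3.62 to 6.17 CPM. Col28a1 had 3.42, 2.46, 2.32 and 3.71 CPM in NSC and 0, 0, 0.19 and 0.39 in AGES (-4.30 ± 0.55, adjusted p = 1.68e-07), Col6a3 fell by 3.47 ± 0.67 with overlapping libraries, and Col27a1 fell by 0.84 ± 0.19.

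Among type VI genes, the size of the Col6a1 rise and the call of Col6a2 depended on single libraries. Col6a1 had 78.42, 82.94, 198.23 and 63.50 CPM in AGES against 41.16, 64.18, 9.36 and 27.55 in NSC (1.57 ± 0.41, adjusted p = 0.00186), and 1.08 (adjusted p = 0.0159) without AGES replicate 3. Col6a2 had 8.31, 7.16, 28.64 and 5.82 against 6.58, 9.47, 0.32 and 3.04 CPM (1.36 ± 0.55, adjusted p = 0.0351), with 0.54 (adjusted p = 0.366) without AGES replicate 3. It also missed the threshold without NSC replicate 3 (0.97, adjusted p = 0.067) and without NSC replicate 4 (1.19, adjusted p = 0.0907). The rise of Col6a2, counted among the 15, therefore rests on AGES replicate 3 and NSC replicates 3 and 4.

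Compared with cultured primary astrocytes, AGES held less RNA of most collagens, 5 of the 6 type IV genes among them, and Col4a5 was the only member that passed the test above both cultures, above neoAC CellC only with AGES replicate 3 included. With AdAC CellC as the reference, 2 of 42 members (4.8%) had more RNA in AGES and 37 (88.1%) less, beside 31.0% and 45.2% of all genes. Against neoAC CellC the counts were 2 (4.8%) and 32 (76.2%), beside 34.1% and 40.5%. The medians were -4.33 and -4.83, or -3.62 and -4.43 with the 6 members at the floor set to their lowest possible fold, against -0.23 and -0.07 over all genes. Many members passed the filter on low counts only through the primary cells in which they are high, so these counts describe the members and are not evidence on their own, and both comparisons share the AGES libraries.

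Col5a2 had 0.74, 1.10, 0.86 and 0.82 CPM in AGES, against 1356 to 1561 in AdAC CellC (-10.66 ± 0.21, adjusted p = 1.50e-23) and 381 to 612 in neoAC CellC (-9.15 ± 0.20, adjusted p = 8.97e-23). Col1a1 had 0.74, 0.67, 0.96 and 0.92 CPM in AGES (-9.94 ± 0.26 against AdAC CellC, adjusted p = 1.70e-20), Col1a2 0.43, 0.32, 0.35 and 0.23, and Col8a1 0.08, 0.35, 0.10 and 0.26 (-11.47 ± 0.40, adjusted p = 2.00e-17). The AGES libraries held 2, 12, 3 and 8 counts of Col8a1, so that its fitted difference depends on the prior count of the fit. NSC were likewise low, with 0.51 to 1.01 CPM of Col1a1, 0.37 to 1.15 of Col5a2 and 0.16 to 0.37 of Col8a1, none of which passed the test against AGES. Col6a5 was at the floor in AGES and at least 242-fold lower than in neoAC CellC, and Col6a4 at least 24.6-fold lower.

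Col5a1 was the fibrillar gene with the highest level in AGES, with 174.59, 176.29, 374.37 and 164.73 CPM in AGES, 145.56, 109.64, 94.59 and 144.92 in NSC and 177.98 to 259.92 in neoAC CellC. It was lower in AGES than in AdAC CellC (506.36 to 660.6 CPM, no overlap) and did not pass the test against neoAC CellC, as Col27a1 did not (12.03 ± 2.12 against 14.4 ± 1.61 CPM). For Col5a1 this holds with AGES replicate 3 included. The other AGES libraries, at 164.73 to 176.29 CPM, lay below every neoAC CellC library, and the test without replicate 3 is not given. Col11a2 was the fibrillar gene that did not pass against AdAC CellC (8.13 ± 1.32 against 10.5 ± 1.41 CPM). Col4a5 was higher in AGES than in AdAC CellC (0.92 ± 0.23, adjusted p = 0.00115, 0.71 without AGES replicate 3) and than in neoAC CellC (0.72 ± 0.23, adjusted p = 0.00805), but the latter became 0.51 with an adjusted p of 0.054 without AGES replicate 3. Col6a1 was likewise higher than in neoAC CellC (1.04 ± 0.40, adjusted p = 0.0236) only with that library, at 0.55 (adjusted p = 0.193) without it and 0.90 (adjusted p = 0.0721) without neoAC CellC replicate 3. Col9a2 was the other gene above AdAC CellC (2.52 ± 0.26, adjusted p = 3.76e-09).

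In AGES and NSC the pericyte marker Pdgfrb was at 0.25 and 0.20 CPM, Dcn at 0.05 and 0.02, Cldn5 at 0.02 in both and Pecam1 at 0.14 and 0.22, and the endothelial list summed to 3.22 to 14.7 CPM. The mural list summed to 87.0 to 203 CPM there, of which Notch3 had 131 and 120, and the fibroblast list to 148 to 212 CPM, of which Fbln1, Ogn and Islr had 52.7, 53.8 and 53.5 in AGES and 158, 0.40 and 0.63 in NSC. Pdgfrb, Dcn, Cldn5 and Pecam1 were thus near 0 in AGES and NSC, and at 6.64 to 140 CPM in the directly isolated groups. As given above, Cldn5 was low in neoAC CellC as well. Of the 10 fibroblast, 10 mural and 10 endothelial markers, AGES had 9, 7 and 6 lower and 1, 1 and 0 higher than neoAC CellC (40.5% and 34.1% of all genes). Against AdAC CellC 6, 9 and 10 were lower and 3, 1 and 0 higher (45.2% and 31.0%). Their part in the difference of collagen levels was not tested.

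**Figure D4:**
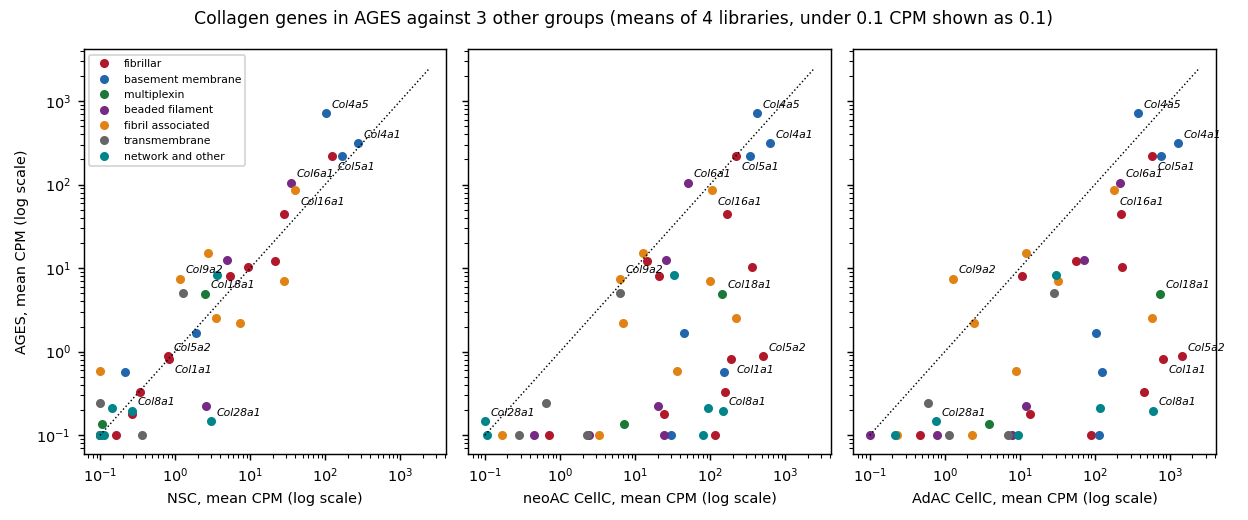
Mean CPM of each collagen gene in AGES (vertical, log axis) against NSC, neoAC CellC and AdAC CellC (horizontal, log axes), means of 4 libraries with values under 0.1 drawn as 0.1 and a dotted line at equal levels. Points lie along the line against NSC, where Col4a5 sits above it at 710 and 103 CPM, and far below it for Col5a2, Col8a1 and Col18a1 against both cultures.

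The 6 type IV genes lie in 3 head-to-head pairs. Col4a1 and Col4a2 on chromosome 8 overlap at their starts by 22 bases, 71 bases separate Col4a3 from Col4a4 on chromosome 1, and 1308 bases separate Col4a5 from Col4a6 on chromosome X (GRCm38). Protein trimers join chains 1 and 2, chains 3, 4 and 5, or chains 5 and 6. The chain of Col4a5 thus has partners in the pair of Col4a3 and Col4a4 and in its neighbour Col4a6. Per exon length, Col4a1 was 1.47 ± 0.240 times Col4a2 in NSC, 1.24 ± 0.153 in AGES, 1.498 ± 0.0151 in AdAC CellC, 1.65 ± 0.0621 in neoAC CellC and 1.58 ± 0.120 in neoAC direct, but 0.806 ± 0.0516 in AdAC direct. The AdAC direct libraries (0.748 to 0.853) lay below every other library (1.03 to 1.72), and with the length of the longest transcript the ratio there was 0.886. Because the pair overlaps and use of the strand in counting is not stated, a small part of these reads may be shared.

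Col4a3 and Col4a4 rose together in culture. Col4a3 had 136.09, 121.54, 102.8 and 93.92 CPM in AdAC CellC against 1.53, 1.39, 1.13 and 1.72 in AdAC direct (6.30 ± 0.23, adjusted p = 9.57e-18), and Col4a4 114.21, 116.0, 97.26 and 86.41 against 9.12, 7.29, 9.30 and 10.38. The ratio of Col4a3 to Col4a4 per length was 0.172 ± 0.0308 in AdAC direct and 0.199 ± 0.0983 in neoAC direct, and 1.17 ± 0.0703 and 0.707 ± 0.101 after culture, so Col4a3 gained more than its neighbour. In NSC and AGES Col4a3 was at 0 to 0.163 CPM and Col4a4 at 1.31 to 2.80. In all, 5.65% of the exon length of Col4a3 overlaps an antisense gene.

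Col4a5 and Col4a6 parted in the stem cell-derived groups. AGES had 481.43 to 1004.9 CPM of Col4a5 but 0.58, 0.55, 0.80 and 0.36 of Col4a6, a ratio per length of 1473 ± 106. It was 573 ± 224 in NSC, 15.7 ± 1.40 in AdAC direct, 6.16 ± 0.437 in neoAC direct, 3.56 ± 0.388 in AdAC CellC and 3.32 ± 0.156 in neoAC CellC. Col4a6 rose with culture in adult cells from 3.12 to 3.71 CPM to 104.76 to 146.73 (5.19 ± 0.12, adjusted p = 2.65e-21). AGES thus held a high level of the alpha 5 chain RNA with little RNA of the alpha 3, alpha 4 or alpha 6 chains.

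**Figure D5:**
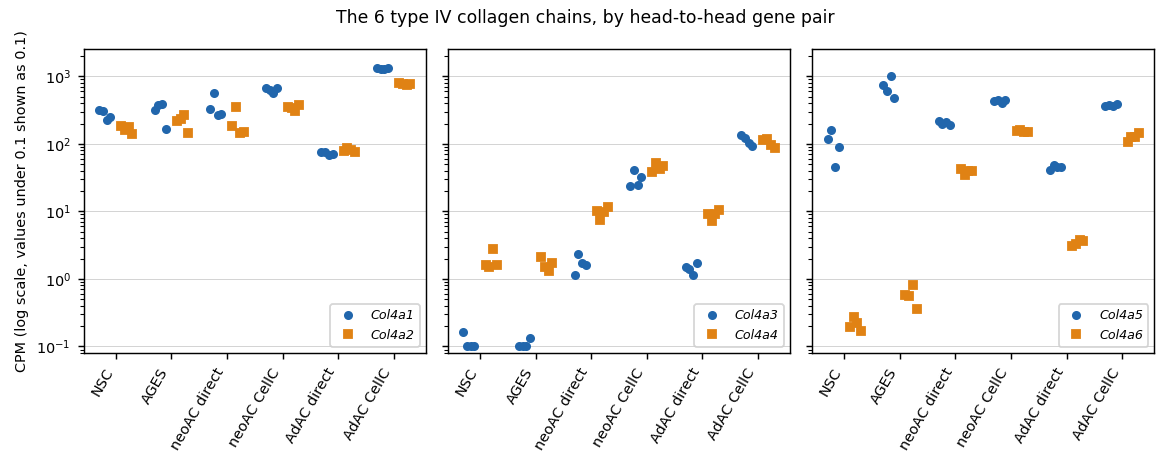
Level of the 6 type IV genes in CPM (log axis, values under 0.1 drawn as 0.1) in the 4 libraries of each group, by head-to-head pair, circles for the first and squares for the second gene. Col4a1 and Col4a2 stay within a narrow distance in every group, while Col4a5 and Col4a6 are separated by about 3 orders of magnitude in AGES.

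Ratios of chains that can be joined in 1 trimer differed between the groups in other types as well. Type I collagen joins 2 alpha 1 chains with 1 alpha 2 chain, and Col1a1 per length was 3.46 ± 0.551 times Col1a2 in AdAC CellC and 1.91 ± 0.341 in AdAC direct, 2.27 ± 0.208 in neoAC CellC and 0.926 ± 0.0839 in neoAC direct. With the longest transcript as length, the ratios were 1.65, 0.912, 1.08 and 0.441. This change scales every library by the same factor, so the order of the groups cannot change. Which groups lie near the 2 to 1 of the trimer depends on the length used. Col5a1 was 291 ± 137 times Col5a2 in AGES and 219 ± 155 in NSC, but 0.374 to 0.718 in the means of the primary groups. Col8a1 was 0.0122 ± 0.00433 times Col8a2 in AdAC direct and 2.97 ± 0.347 in AdAC CellC.

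Genes for collagen synthesis and crosslinking were read from a list of 31, all tested. The shares of all genes given above for each comparison are repeated as background. In AdAC CellC against AdAC direct 24 were higher and 4 lower (38.8% and 39.2% of all genes), led by Lox, the lysyl oxidase that crosslinks fibrils, with 782 against 0.558 CPM (10.43 ± 0.41, adjusted p = 3.74e-16), by the related Loxl2 (7.56 ± 0.63) and by Adamts14, which removes the amino-terminal propeptide (7.43 ± 0.67). In neoAC CellC against neoAC direct 19 were higher and 5 lower (34.4% and 31.3%), with Loxl2 at 148 against 4.70 CPM (4.98 ± 0.55, adjusted p = 8.35e-08) and P3h2, a prolyl 3-hydroxylase, at 72.0 against 3.28. In AGES against NSC 8 were higher and 12 lower (31.7% and 34.0%), with Adamts2 at 23.6 against 0.942 CPM (4.65 ± 0.28, adjusted p = 1.64e-13) and Colgalt1, a collagen galactosyltransferase, at 85.1 against 343. AGES had 2 higher and 23 lower (31.0% and 45.2%) against AdAC CellC, among them Lox at 0.382 against 782 CPM and Fkbp10, a chaperone of procollagen, at 0.397 against 216. Medians were 1.37, 0.60, -0.36 and -1.08 in these 4 comparisons.

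Between neonatal and adult cells 15 of the 31 were higher and 10 lower when directly isolated (35.0% and 36.4% of all genes), the latter share near the background, and 4 were higher and 21 lower in culture (28.5% and 35.2%), where Lox had 40.2 against 782 CPM (-4.28 ± 0.28, adjusted p = 1.41e-11). Against neoAC CellC, AGES had 6 higher and 19 lower (34.1% and 40.5%), with P4ha3, a prolyl 4-hydroxylase subunit, at 0.501 against 135 CPM. The effect of culture was higher in adult cells for 20 of the 31 and lower for 7 (35.4% and 33.2%).

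Of 11 collagen receptor genes 10 were tested, too few for the counts to be read closely against the shares of all genes, which follow them. AGES had more Ddr1, a collagen-activated receptor kinase, than NSC (1244 against 221 CPM, 2.49 ± 0.15, adjusted p = 1.15e-13), and 7 of the 10 were higher and 1 lower (31.7% and 34.0%). In adult culture 6 were higher and 4 lower (38.8% and 39.2%), with Itgb1, the shared beta chain of the collagen-binding integrins, at 945 against 137 CPM (2.79 ± 0.14, adjusted p = 2.69e-15) and Itga2 at 10.3 against 0.656. In neonatal culture 4 were higher and 3 lower (34.4% and 31.3%), near the background, with Ddr1 at 1064 against 388 CPM and Adgrg1, a receptor for type III collagen, at 226 against 1360 (-2.59 ± 0.13, adjusted p = 4.01e-15). Against AdAC CellC, AGES had 5 higher and 4 lower (31.0% and 45.2%), and against neoAC CellC 4 higher and 4 lower (34.1% and 40.5%), with Ddr2, the receptor kinase for fibrillar collagens, at 6.84 CPM against 150 and 95.9. Neonatal cells had 7 higher and 2 lower than adult cells when directly isolated (35.0% and 36.4%) and 3 higher and 5 lower in culture (28.5% and 35.2%).

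Of the members not yet described, most were low. Col24a1, Col17a1, Col6a6, Col19a1 and Col10a1 stayed at 1.10 CPM or less in every library. Col13a1, Col14a1 and Col15a1 were at 0.26 CPM or less in NSC and AGES and at 0.355 to 8.46 in primary cells. Col7a1, the anchoring fibril collagen of skin, had 2.39 to 11.1 CPM in NSC and AGES and 5.20 to 42.0 in primary cells, and rose in neonatal culture (33.2 ± 6.15 against 7.19 ± 2.54 CPM). Col16a1, a fibril-associated collagen, was among the higher members in all groups, from 27.1 CPM in an NSC library to 242 in a neoAC direct library. It fell in neonatal culture (106 ± 28.3 against 221 ± 37.6 CPM) and was higher in AGES than in NSC (85.7 ± 41.1 against 39.7 ± 15.7 CPM, with overlapping libraries).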

How the data were processed

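Poly(A) RNA of 24 libraries (6 groups of 4) was sequenced with a stranded mRNA kit. The authors demultiplexed reads with bcl2fastq 2.20, aligned them to GRCm38 with STAR 2.7.3a and counted reads per gene of Gencode release 12 with featureCounts by exon, whose strand and pair settings are not given in the sources used here. The deposited values are raw counts per gene, which were used as deposited. Gene symbols and exon lengths came from Gencode release 21, which held 49326 of 49671 identifiers (99.3%).

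Libraries were scaled by TMM, genes with low counts were removed (19691 kept), and 1 model of all 6 groups was fitted with edgeR 4.0.16 in R 4.3.3 (quasi-likelihood F test, robust, two-sided, Benjamini-Hochberg over all genes tested, threshold 0.05). "Higher", "rose", "lower" and "fell" refer to that threshold, and SE is the log2 fold change divided by the root of F. CPM are TMM-scaled, given as single libraries in the order of replicates 1 to 4 or as mean ± SD (n = 4). With 27904126 to 37997368 counts a library, 3 counts were taken as the floor, and this covers counting error only. The alternatives were DESeq2 1.42.0, other scalings and filters, the compared groups alone, a replicate block and leaving out each library. The scripts were tested on simulated data.

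The members and lists were chosen with earlier results of these data known. Every member may be named. Fold changes with their errors are given for up to 6 members that rose and 6 that fell in a comparison, by size, where the group with the higher mean reached 1 CPM, and for up to 5 genes of each other list. Values of single libraries are given for the members a comparison turns on, and the plot of all libraries holds the rest. Same-numbered libraries did not deviate strongly together: in 0 of 15 pairs of groups was every correlation over 0.1 (range -0.151 to 0.106). This cannot exclude weaker pairing. No 2 replicates agreed within sampling noise (chi-square per gene 6.144 to 77.85 over 36 pairs).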

Additional observations from a re-analysis of the deposited data

Results flagged for a closer look

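Of 140 groups of 4 libraries over 27 collagen genes, 10 held a library whose gap to the others passed Dixon's critical value at 95%, and chance alone flags about 1 in 20. AGES replicate 3 stood above the others of its group in 3 genes, with 374.37 CPM of Col5a1 (others 164.73 to 176.29), 198.23 of Col6a1 (63.50 to 82.94) and 28.635 of Col6a2 (5.82 to 8.31). In NSC, replicate 3 had 2.6099 CPM of Col11a1 (10.819 to 12.068) and 2.8008 of Col4a4 (1.52 to 1.63), replicate 2 had 10.014 of Col12a1 (0.605 to 2.02), and replicate 4 had 0.90259 of Col23a1 (1.34 to 1.43). In neoAC direct, replicate 4 had 164.93 CPM of Col16a1 (237.74 to 242.43) and replicate 2 had 59.651 of Col18a1 (26.57 to 32.20). AdAC CellC replicate 2 had 595.2 CPM of Col1a1 (865.9 to 918.02).

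The effect of culture differed between adult and neonatal cells by the interaction test of edgeR. The adult effect exceeded the neonatal one on the log2 scale by 5.1751 for Col6a1, 4.8208 for Col12a1, 4.6776 for Col28a1 (adjusted p = 1.25e-05, the highest of these 12), 4.6741 for Col18a1, 3.9254 for Col3a1 and 3.3206 for Col4a1. The adult minus neonatal difference was -7.205 for Col6a5, -5.1675 for Col6a4, -4.7836 for Col11a2, -3.7337 for Col20a1, -3.3528 for Col8a2 and -2.3874 for Col5a3.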

How the results depend on the processing

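No named gene changed direction under any alternative run in which it was tested, but only 48 of the 87 named results could be tested under the strictest filter. A minimum of 10 counts in every library left 22 members, all of which differed among the 6 groups (22). It gave 12 higher in AdAC CellC than in AdAC direct, 14 higher and 5 lower in neoAC CellC than in neoAC direct, 3 lower in AGES than in NSC, and, for AGES against the cultures, 17 lower with adult and 15 lower with neonatal cells. It gave 5 higher in neoAC CellC than in AdAC CellC, 14 higher and 5 lower in neoAC direct than in AdAC direct, and 16 higher and 6 lower for the interaction. These counts are smaller because fewer genes were tested. The median over the members moved as well, from 0.74 to 2.97 in adult culture, from 0.19 to 0.72 for AGES against NSC, from -4.33 to -2.15 and from -4.83 to -1.37 for AGES against the adult and neonatal cultures, and from 0.09 to -0.96 for neonatal against adult culture. That last median was also -0.02 with no filter and -0.003 without AdAC CellC replicate 4, so its sign is not settled, and the median for AGES against NSC was 0.05 without AGES replicate 2 and 0.69 in the compared groups alone. The 2 members higher in AGES became 1 against each culture with a log2 difference over 1, and against neoAC CellC 0 with library size as the only scaling and 0 to 2 with 1 library left out (0 without AGES replicate 3, 1 without neoAC CellC replicate 3). The cause was not tested.

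With a replicate block in the compared groups alone, 1 member was higher in AGES than in neoAC CellC, and 3 of 87 named results missed the threshold: Col6a1 in AGES against NSC (1.67, adjusted p = 0.0581) and against neoAC CellC (0.85, 0.0683), and Col6a2 against NSC (1.34, 0.27). No strong pairing by replicate number was seen, but weak pairing was not excluded. Col6a2 against NSC also missed it with no filter on low counts (1.44, adjusted p = 0.0547) and in the compared groups without a block (1.45, 0.126), and Col6a1 (0.73, 0.101) and Col4a5 (0.42, 0.104) in AGES against neoAC CellC with library size only. All 87 kept their side of the threshold with DESeq2's test and with its size factors, as did 786 of 792 values with 1 library left out. With that scaling by library size, all genes had a median of -0.45 for AGES against AdAC CellC, -0.37 against neoAC CellC and 0.27 for neonatal culture. Depth limits members near 3 counts: their fitted fold changes depend on the prior count and are not bounds, and bounds are given as such only for members at the floor.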
